A study of Bos taurus with 12 samples.

Results

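Genes of neuronal adhesion and axon guidance were taken from a comparison of DNA methylation in bull sperm, by words in the full gene names that the authors' annotation gives. A gene belonged to the set when a listed locus on chromosomes 1 to 29 lay within 10 kb of its closest annotated feature and its name held 1 of 15 terms, such as contactin, cadherin, EPH receptor, semaphorin, roundabout or teneurin. The rule used no measured value and took 33 of the 2223 named autosomal genes that had a listed locus within that distance. Of these, 28 belong to 11 families of adhesion and guidance proteins. The other 5 lie outside these families and were taken only because a term stands in their name (junctional cadherin 5 associated, junctional cadherin complex regulator, plexin domain containing 2, transmembrane O-mannosyltransferase targeting cadherins 2 and kirre like nephrin family adhesion molecule 3). That does not exclude a role in adhesion, and the last is named as an adhesion molecule. No ephrin ligand, plexin receptor, neurexin, netrin ligand or neuronal growth regulator had a locus within the limit in the chromosomes analysed. The site rows used here cover none of chromosomes 2, 3, 4, 12, 23 and 27, and the tile rows none of 12, 23 and 27, so genes there were not analysed here.

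Growing axons steer by cues that they meet on the way. Slits, netrins, semaphorins and ephrins are such cues, and roundabout, UNC5, plexin and EPH proteins are receptors that turn them into attraction, repulsion or a stop. Contactins, cadherins, neural cell adhesion molecules, neuroligins and teneurins hold membranes of neighbouring cells together and help to place synapses. Genes of these families are often very long and mostly intron, and many also act in other tissues, among them blood vessels, kidney and testis.

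The samples were sperm DNA of bulls whose daughters had low fertility (6 samples) or high fertility (6 samples), read by enzymatic methylation sequencing, which converts unmethylated cytosines with enzymes instead of bisulfite. The labels give no treatment, breed or age, and nothing in them says how the samples of a group relate to each other. Only the authors' own comparison of the groups was at hand, as 17730 single CpG sites and 7290 overlapping windows of 500 bp, called tiles, on the cattle build ARS-UCD1.2. Each locus has a methylation difference in percentage points, a p-value and a q-value and no value per sample, so the spread between bulls and the depth are unknown, and the sperm label could not be checked against marker levels. The sign of a difference is given as listed, because neither the labels nor the headers name the subtracted group.

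Most CpG sites of these genes differed little between the groups, and 4 genes held 1 called site each. The set had 56 sites in 29 genes on 15 chromosomes, and 38 of the sites differed by less than 5 points. A site counted as called at q below 0.05 and a difference of at least 10 points in either direction. By the authors' deposited table, 4 of the 56 sites (7.14%) met this, against 3.27% of the 3276 sites near named autosomal genes. They lay in contactin 3, dachsous cadherin-related 2 and unc-5 netrin receptor C and downstream of semaphorin 7A. Of the 4 sites 3 were negative (5.36%, against 1.77% of all such sites) and 1 was positive (1.79%, against 1.5%). By gene, 4 of 29 (13.8%) had a called site, against 4.52% of 1904 named genes, with a mean of 1.93 listed sites per gene in the set and 1.72 over all named genes. These counts are small and no test was run on them.

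By looser measures the shares lay closer to those of all sites. An unadjusted p below 0.05 was listed for 11 of the 56 sites (19.6%), and the share over all sites near named genes was also 19.6%. These 11 sites lay in 9 genes, and 7 were negative and 4 positive. For q below 0.05 at any difference the set had the same 4 sites (7.14%), beside 5.04% of all sites. The median p was 0.244 in the set and 0.262 over all sites, while the median absolute difference was 3.61 points in the set and 2.38 points over all.

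**Figure D1:**
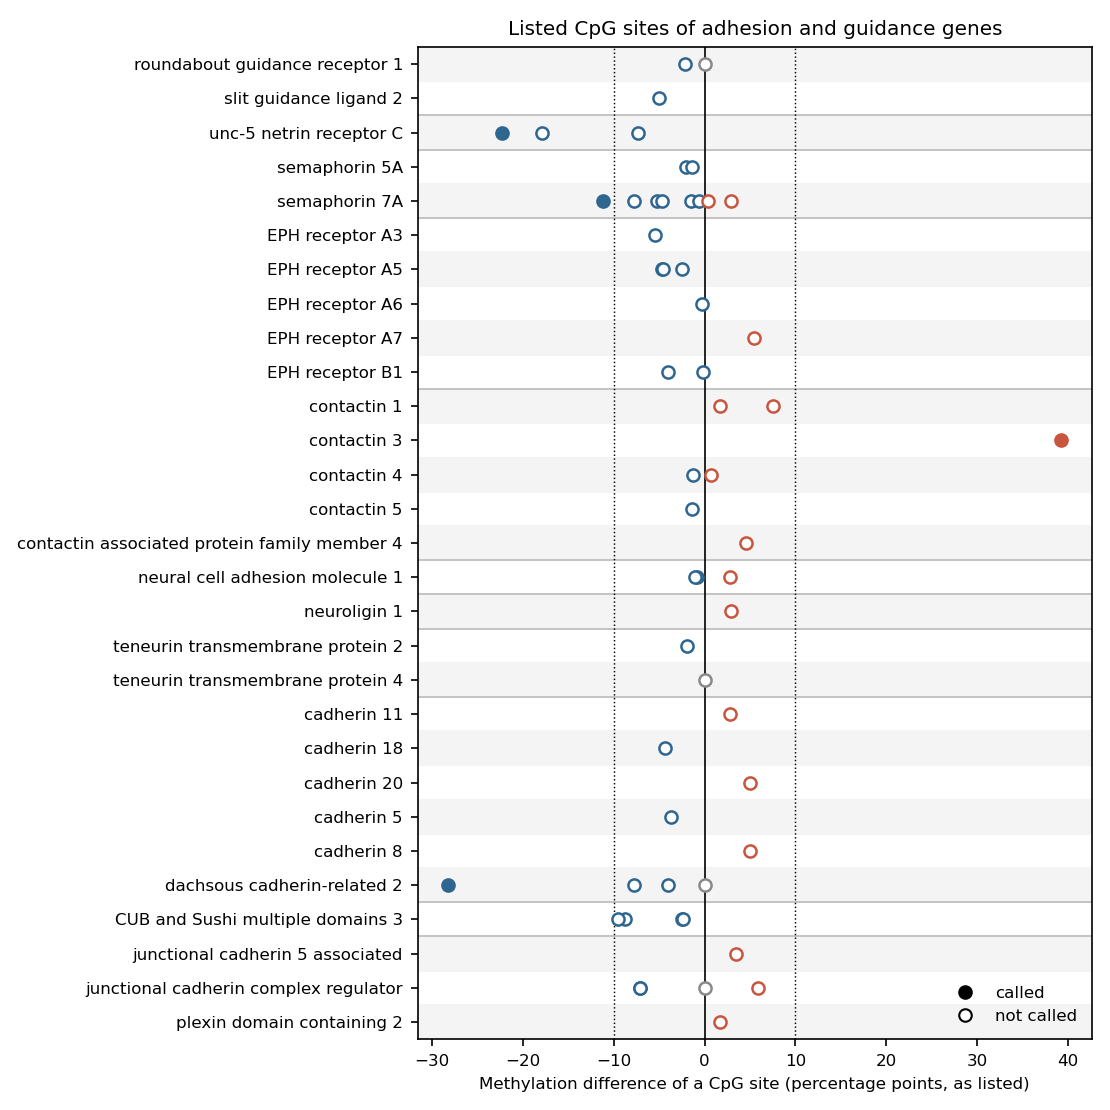
Listed methylation difference of each of the 56 CpG sites (x axis, percentage points) by gene (y axis), with filled points for called sites, open points for the others and dotted lines at 10 points in either direction. The 4 filled points run from -28.3 to 39.3 points, and apart from these 1 open point, of unc-5 netrin receptor C at -18.0, passes a dotted line.

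Among the secreted and membrane-bound cues, the called site was that of semaphorin 7A (ENSBTAG00000011446), a lipid-anchored semaphorin that promotes axon growth and also acts in immune cells. It had the most listed sites of the set, 8 within 184 bp on chromosome 21, all on the plus strand and all in the authors' downstream class, 7610 to 7793 bp from an intron. In order along the chromosome the authors' deposited table lists differences of -1.55, -0.575, -5.26, 0.321, -11.3, -7.74, -4.72 and 2.88 points. The called site is the fifth, at position 34265911, with p = 0.00418 and q = 0.0363 by the authors' deposited table. Thus 6 of the 8 were negative, the 2 lowest values stood next to each other, and the mean over the stretch was -3.49 points. With a Benjamini-Hochberg adjustment over all listed sites the called site had an adjusted p of 0.0558, which ends its call. The annotation lists the start of that intron after its end, as it does for 10 of the 56 sites, so the place of these sites relative to the gene is less certain.

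The other cues showed small differences. Semaphorin 5A, a transmembrane semaphorin, had 2 sites at -2.08 and -1.41 points in the authors' deposited table. Slit guidance ligand 2, a secreted repellent, had 1 intronic site at -4.98 points with q = 0.296 by the authors' deposited table. Its receptor, roundabout guidance receptor 1, had 2 intronic sites, listed there at 0 and -2.22 points. None of these 5 sites reached p below 0.05, but 5 sites are too few to set against the 19.6% of all sites.

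The receptor with the largest listed difference was unc-5 netrin receptor C (ENSBTAG00000002084), which carries the repulsive response to netrin. Its 3 sites lie within 27 bp of 1 intron on chromosome 6 (intron 29170406 to 29215575), all on the minus strand. In the authors' deposited table position 29177589 stood at -22.3 points (p = 0.00146, q = 0.0241) and was called. The next site, 7 bp on, stood at -18.0 points (p = 0.00732, q = 0.0758) by the authors' deposited table and was not called. At position 29177615 the same table lists -7.30 points with q = 0.440. All 3 neighbours were thus negative, with a mean of -15.9 points, and this was the only run of close sites in the set with more than 1 difference past 10 points. CpGs this close can be read from the same DNA fragments, so the 3 values are not separate evidence. A further site of the same intron, at position 29195708 and beyond the 10 kb limit, stood at -0.763 points with q = 0.741 by the authors' deposited table.

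**Figure D2:**
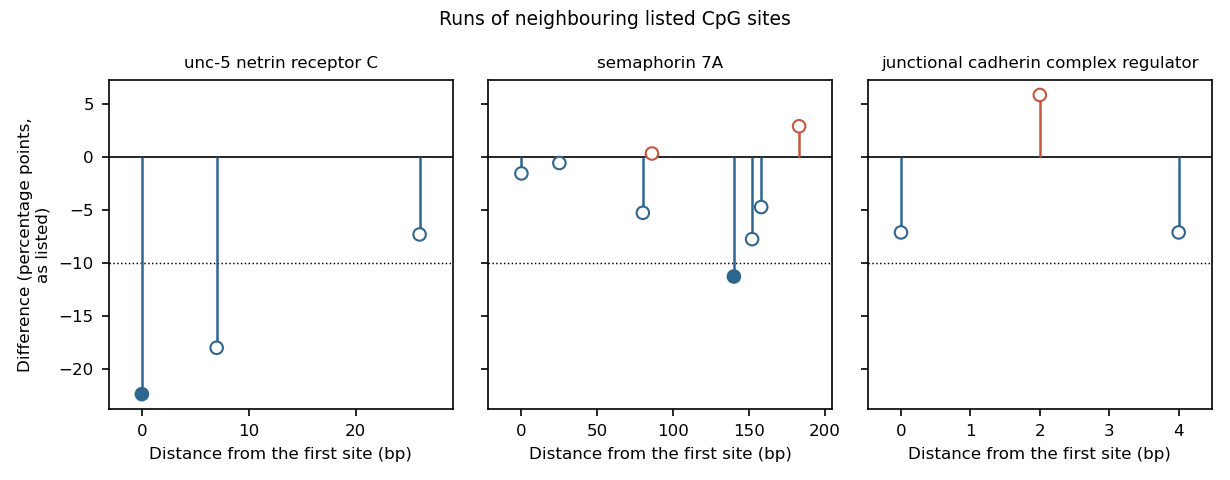
Listed difference (y axis, percentage points) against the distance from the first site (x axis, bp) in the runs of close CpG sites of unc-5 netrin receptor C, semaphorin 7A and junctional cadherin complex regulator, with filled points for called sites. The 3 sites of unc-5 netrin receptor C are all negative, 6 of the 8 near semaphorin 7A are negative, and the signs of the last run alternate.

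EPH receptors are receptor tyrosine kinases that bind ephrins on the neighbouring cell. Their 8 sites in 5 genes had a median of -3.30 points. Of the 8, 7 were negative, beside 52.4% of all sites near named genes. None was called, but 8 sites are too few to set against the 3.27% called among all such sites. EPH receptor A3 had the only site of the set inside coding sequence, at position 37497667 of chromosome 1, 8 bp from the nearer edge of that coding segment. In the authors' deposited table it stood at -5.49 points with p = 0.00783 and q = 0.0733. EPH receptor A5 had 3 intronic sites at -4.74, -4.60 and -2.51 points in the authors' deposited table, the second with p = 0.0176 and q = 0.112. EPH receptor A7 went the other way, with an intronic site at 5.41 points (p = 0.0125, q = 0.101) by the authors' deposited table. EPH receptor A6 and EPH receptor B1 had values of -0.341, -0.167 and -4.08 points there. Each of the 8 differences was below 6 points in size. Beyond 10 kb the EPH receptors had 14 sites, 8 negative and 6 positive, with a lowest value of -19.4 points in the authors' deposited table, so the counts within the limit do not stand for all their sites.

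Contactins, immunoglobulin-type adhesion molecules anchored to the axon surface, gave the largest difference of the set. The site of contactin 3 (ENSBTAG00000007615), at position 27303005 of chromosome 22, stood at 39.3 points with p = 1.28e-10 in the authors' deposited table and was the only called site with a positive difference. It lies 3170 bp inside an intron that runs from 27299835 to 27336982. Only 2 of the 107 called sites near named genes had a larger absolute difference. It was also the only site of contactin 3 within 10 kb, so no neighbour could be set beside it, and no tile was listed over it. With a Benjamini-Hochberg adjustment over all listed sites it had an adjusted p of 9.87e-08.

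Other contactins did not approach that value. Contactin 1, which acts where myelin meets the axon, had intronic sites at 1.73 and 7.58 points in the authors' deposited table, the latter with p = 0.0329 and q = 0.156. Contactin 4 had sites at 0.650 and -1.28 points, and contactin 5 had 1 site in the authors' promoter class at -1.45 points, in the same table. Contactin associated protein family member 4, a relative of the neurexins, had an intronic site at 4.53 points with q = 0.299 by the authors' deposited table. Over the 7 sites of these 5 genes the median was 1.73 points, with 5 positive and 2 negative. Their 10 sites beyond 10 kb had 4 negative, 4 positive and 2 at 0.

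Cadherins bind their like on the next cell through calcium-dependent repeats. The called site among them belonged to dachsous cadherin-related 2 (ENSBTAG00000024545), a giant cadherin of the family that sets planar cell polarity. At position 3235223 of chromosome 17 the authors' deposited table lists -28.3 points with p = 0.000162 and q = 0.0171, in an intron from 3234586 to 3248439 and 637 bp from its edge. Of the 107 called sites near named genes 19 had a larger absolute difference. Its other 3 sites lie in other introns and had -4.04, -7.79 (p = 0.0222) and 0 points in the authors' deposited table. No site of the gene was positive.

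The other 5 cadherins had 1 site each and no p below 0.05, too few sites to set against the 19.6% of all sites. Cadherin 5, the cadherin of blood vessel walls, stood at -3.74 points and cadherin 18 at -4.38 points in the authors' deposited table. Cadherin 11 stood at 2.77 points and cadherin 20 at 5.0 points, both in introns, in the authors' deposited table. Cadherin 8 (CDH8), a type of cadherin found in brain circuits, had 5.0 points in the authors' promoter class, 57 bp from the feature, with q = 0.563 by the authors' deposited table. That feature is an intron listed with its start after its end, so the promoter placement is less certain. Signs were thus mixed within the family, with 5 negative, 3 positive and 1 at 0 over its 9 sites.

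The neural cell adhesion, neuroligin, teneurin and CUB and Sushi genes held 10 sites, 7 negative, 2 positive and 1 at 0. None of the 10 was called, a number too small to set against the 3.27% of all sites. Neural cell adhesion molecule 1 had 2 sites 36 and 63 bp from an exon, in the authors' promoter class, at -1.02 and -0.864 points in the authors' deposited table. Its intronic site stood at 2.81 points there. Neuroligin 1, the postsynaptic partner of the neurexins, had an intronic site at 2.87 points with q = 0.431 by the authors' deposited table. Teneurin transmembrane protein 2 and teneurin transmembrane protein 4, which bind latrophilins across the synapse, had sites at -1.92 and 0 points there. CUB and Sushi multiple domains 3 (ENSBTAG00000038281), a very large membrane protein, had 4 sites within 10 kb, all negative. They stood at -2.44, -8.82, -2.38 and -9.53 points in the authors' deposited table, with a lowest q of 0.204. The last of them lay downstream of an intron listed with its start after its end. Beyond 10 kb the sites under this name had both signs, from -9.61 to 18.6 points. The signs within the limit therefore do not stand for all of them.

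Of the genes taken only for a word in their name, 3 had sites, 6 in total. None was called, but 6 sites are too few to set against the 3.27% of all sites. Junctional cadherin complex regulator (JHY) had 3 sites spaced 2 bp apart on chromosome 15, at -7.11, 5.83 (p = 0.0276) and -7.11 points in the authors' deposited table. The outer sites of that run carry identical differences and p-values. Its last site stood at 0, junctional cadherin 5 associated at 3.48 points and plexin domain containing 2 at 1.73 points in the authors' deposited table.

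**Figure D3:**
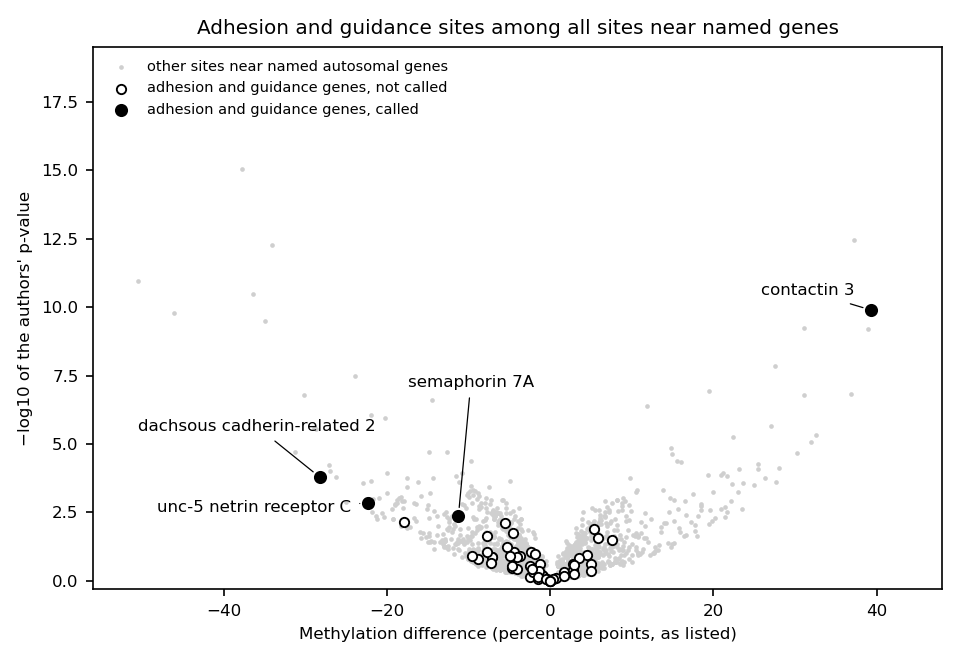
Listed difference (x axis, percentage points) against -log10 of the authors' p-value (y axis) for the 56 sites of the adhesion and guidance genes (open points, filled where called) and all other sites near named autosomal genes (grey). Contactin 3 lies at the right edge of all sites at 39.3 points, and the other 3 called sites lie on the negative side.

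Negative differences were more common than positive ones, by a margin that the choice of loci alters. Of the 56 sites 36 were negative, 16 positive and 4 at 0. The negative share was 64.3% (exact 95% Clopper-Pearson interval 50.4 to 76.6%), and over all sites near named autosomal genes it was 52.4%. With 1 median per gene, 18 of 29 genes were negative (62.1%), against 52.3% of named genes. The interval counts sites as independent, which neighbours are not.

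The sites of the set lay mostly inside introns. In total 41 of 56 (73.2%) were within an intron, against 60.2% of all sites near named genes. By the authors' classes promoter sites were fewer, with 4 of 56 (7.14%) against 15.8%, and downstream sites were 10 of 56 (17.9%) against 15.7%. Of the 10 downstream sites 8 were those of semaphorin 7A. These, the downstream site of CUB and Sushi multiple domains 3 and the promoter site of cadherin 8 have a feature listed with its start after its end. The downstream site of semaphorin 5A was placed from an untranslated region at the start of the gene. The promoter site of contactin 5 lay 9033 bp from its feature. The classes are therefore not certain positions relative to the genes. Of the called sites 3 were intronic and 1 was downstream, and no called site lay in a promoter or coding sequence. With only 4 promoter sites and 1 coding site in the set, that absence cannot be judged.

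The tiles covered few of these genes and gave no call. The set had 17 tiles in 7 genes, and by the rule used for sites 0 of the 17 were called, against 1.27% of 1256 tiles near named autosomal genes. For q below 0.05 at any difference the count was 13 of 17 (76.5%), against 61.1% of all such tiles in the authors' deposited table. For p below 0.05 it was 10 of 17 (58.8%), against 53.6%, and 3 tiles had q below 0.05 with p above it. Differences ran from -5.92 to 2.06 points, with 13 negative and 4 positive. The negative share was 76.5% (exact 95% Clopper-Pearson interval 50.1 to 93.2%), against 59.6% of all such tiles, and it counts overlapping tiles as separate.

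Of the 17 tiles 10 belong to CUB and Sushi multiple domains 3 and overlap along 1400 bp of 1 intron, from 52066501 to 52067900 on chromosome 14. Along the chromosome the authors' deposited table lists -2.44, -3.32, -5.92, -4.90, -2.87, -0.452, -0.389, 0.865, 1.37 and 2.06 points. The sign thus turned once along the stretch, and the values at its ends lay on opposite sides of 0. The lowest tile had p = 1.19e-13 and q = 5.87e-14, and the highest had p = 0.00162, in the authors' deposited table. By q below 0.05, 8 of the 10 passed, and by p below 0.05, 7 did. Of the CpG sites described above 2 lie inside this stretch, at -2.44 and -8.82 points, and neither had p below 0.05. The tiles share CpGs with their neighbours, so the 10 values are not separate measurements.

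**Figure D4:**
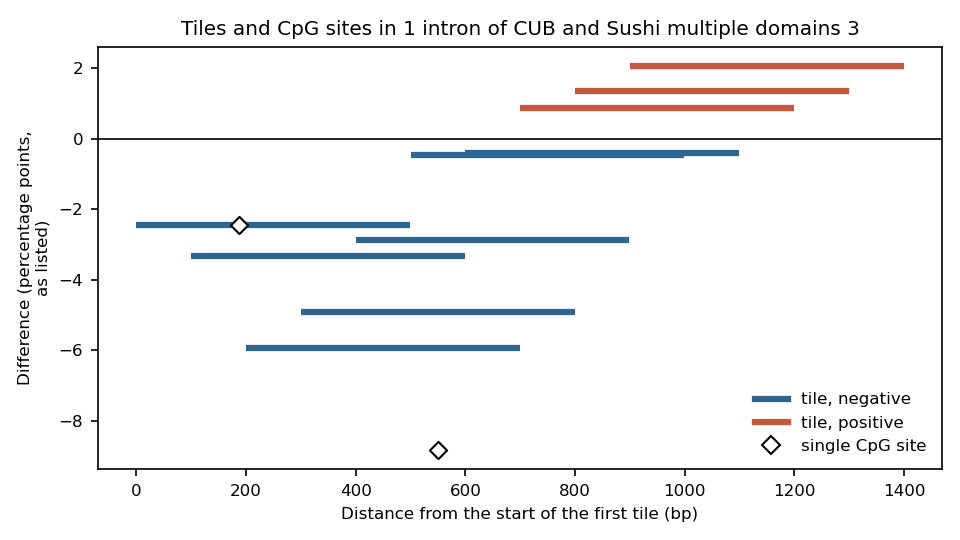
Listed difference (y axis, percentage points) of the 10 overlapping tiles in 1 intron of CUB and Sushi multiple domains 3, each drawn over the 500 bp it covers (x axis, bp from the start of the first tile), with diamonds for the 2 listed CpG sites inside. The bars step from -5.92 points near the left end to 2.06 points at the right end.

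The other 7 tiles differed by less than 1.5 points. Slit guidance ligand 2 had a tile at 0.323 points, with p = 0.0695 and q = 0.0121 by the authors' deposited table. Its only CpG site within 10 kb, in another intron, was negative, and its intronic sites beyond that limit stood at -0.912 and 0 points there. Teneurin transmembrane protein 4 had overlapping tiles on a 5′ untranslated region and coding sequence at -0.290 and -0.742 points in the authors' deposited table. Protocadherin alpha 13 (PCDHA13) and protocadherin gamma subfamily A, 5 are clustered protocadherins, which give neurons their surface identity. They had tiles at -0.467 (q = 0.00831) and -0.805 points (q = 0.0461) by the authors' deposited table. A tile that overlaps that of protocadherin alpha 13, but is closest to a CpG feature, stood at -0.402 points (q = 0.0369). Transmembrane O-mannosyltransferase targeting cadherins 2 stood at -0.454 points (q = 0.0132) and kirre like nephrin family adhesion molecule 3 at -1.43 points (q = 0.0693) by the authors' deposited table. Only 3 genes were in both tables, and tiles lay over 2 of the 56 sites and over 0 of the 4 called ones, so the tiles bear on none of the called sites.

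The 10 kb limit decided which sites of these long genes were counted. For each of the 3493 listed sites inside a gene feature, the authors' distance is the gap to the nearer edge of that feature, so a site deep in a long intron can exceed 10 kb although it lies in the gene. The same words beyond the limit matched 118 sites in 49 genes, of which 38 sites lay deep in introns and 80 were intergenic. Of the 118 sites 4 were called (3.39%), against 3.98% of all 2237 sites beyond the limit of a named autosomal gene. Among those in introns 2 of 38 were called (5.26%), against 4.51% of all sites inside a feature beyond the limit. Signs there were even, with 59 negative, 53 positive and 6 at 0.

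Both deep intronic calls were negative and belong to genes with no called site within 10 kb. At position 29394242 of chromosome 18, cadherin 8 had -17.0 points with q = 0.000474, 21711 bp from the intron edge, in the authors' deposited table, where its promoter site had 5.0 points. Another deep intronic site of cadherin 8, at position 29549149, stood at 1.19 points with q = 0.636 by the authors' deposited table. At position 41808149 of chromosome 1, EPH receptor A6 had -19.4 points with q = 0.0122, 16756 bp from the edge, in the authors' deposited table, where its nearer site had -0.341 points. The intergenic calls were 18.6 points (q = 0.0455), 10975 bp from a second gene identifier named CUB and Sushi multiple domains 3, and -16.8 points (q = 0.0321), 250482 bp from EPH receptor A7, in the authors' deposited table. Just inside the limit lay roundabout guidance receptor 1 at 9680 bp (-2.22 points) and just outside it EPH receptor B1 at 10631 bp (-8.70 points) in the authors' deposited table.

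**Figure D5:**
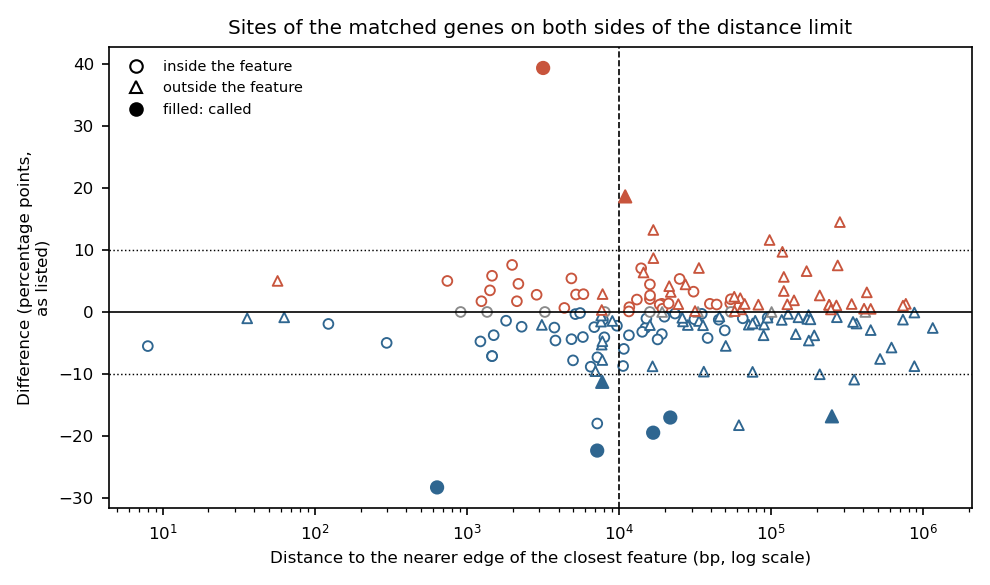
Listed difference (y axis, percentage points) against the distance to the nearer edge of the closest feature (x axis, bp, log scale) for the 56 sites within 10 kb and the 118 beyond it (dashed line), with circles inside and triangles outside a feature and filled symbols for called sites. There are 4 filled symbols on each side of the line.

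Other genes were counted from a separate list of 34 terms for partners and neighbours of these families. It covered names such as catenins, SLIT-ROBO GTPase activating proteins and other cell adhesion molecules. A matching word does not place a gene in the same pathways. The list also took in carcinoembryonic antigen-related cell adhesion molecule 4 and catenin beta like 1, for example. The genes taken had 28 sites in 21 genes, with 12 negative, 14 positive and 2 at 0 and a median of 0.0280 points. Of the 28 sites 1 was called (3.57%, against the 3.27% above), in an intron of platelet and endothelial cell adhesion molecule 1, a protein of blood vessel lining and platelets, at 10.5 points with q = 0.0270 by the authors' deposited table. The widest difference in that list was the uncalled 14.8 points (q = 0.212) of catenin alpha 3, in the authors' deposited table. Its only tile, of astrotactin 2, stood at -0.0666 points there. The lean to negative values was therefore not seen in this list, and the difference between the lists was not tested.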

How the data were processed

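DNA of 12 bull sperm samples, 6 per fertility group, was profiled. Trimmomatic, Bismark, methylKit and the build ARS-UCD1.2 are named, without versions or roles, per the submitters' processing notes. The p-value, q-value and difference of each locus are the authors' own, deposited in 2 tables with the closest feature. The adjustment behind the q-value and any allowance for variation between samples are not given in the sources used here. Chromosomes 2, 3, 4, 12, 23 and 27 (sites) and 12, 23 and 27 (tiles) were not analysed here.

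Names were searched for the 15 terms with Python 3.11.15 and pandas 2.3.3. Counts are set beside all named autosomal genes within 10 kb, the set included. The call rule is q below 0.05 and at least 10 points. The Benjamini-Hochberg step was tested on simulated p-values and the family labels on a few gene names. The other steps were not tested on simulated data. All 4 members with an NCBI number matched RefSeq (ARS-UCD2.0), and 3 of these symbols are printed, since the other is a locus number. The members, lists and alternatives were chosen with earlier results of these data known. Genes named with values are those with a call, those at the extremes or with the most sites of a family, and those in both tables. The rest were added after their values were seen, and so was the grouping by family. No sequence is printed, since no genome of this build was used here.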

Additional observations from a re-analysis of the deposited data

How the results depend on the processing

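Over 52 combinations of result and alternative, 47 stayed within the limits set for a stable value and 5 moved. Some of these could not move. With 0 tiles called at the main setting, a stricter q or a larger minimum difference could only leave 0. Matching whole words only, or keeping 1 locus per CpG, left the same 56 sites. A rise from 4 to 6 called sites also counted as stable, so the tally is not a measure of robustness. At q below 0.01, 1 site in 1 gene remained called, that of contactin 3. With no distance limit, chosen after seeing the data, 8 sites in 8 genes were called, and with loci deep inside introns added, also chosen then, 6 were. At a minimum of 5 points 1 tile was called, the lowest of CUB and Sushi multiple domains 3. The call near semaphorin 7A was lost under a Benjamini-Hochberg adjustment over all listed loci, at a minimum of 20 points and with loci inside a feature only, which each left the other 3. That last setting used the authors' position class, because their distance is not 0 inside a feature. The negative share of sites ranged from 54.6 to 68% over the alternatives, lowest with no distance limit, and that of tiles from 69.2 to 85.7%. No paired analysis was possible because the tables hold no value per sample and the labels share no replicate numbers between groups. For the same reason no sample was left out in turn, and depth, which limits the precision of each difference, is unknown.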

Other observations

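The X chromosome, which the set leaves out, held 8 sites of neuroligin 4 X-linked, a postsynaptic adhesion protein. Of these 5 lay within 10 kb, with 3 positive, 2 at 0 and none negative, up to 13.8 points in the authors' deposited table. Adding them lowers the negative share of the set's sites from 64.3% to 59.0%.

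Beyond 10 kb, 10 of the 118 sites of matching genes differed by at least 10 points and 4 of them were called. The uncalled ones included an intergenic site 61317 bp from contactin 3 at -18.2 points (q = 0.112), as the authors' deposited table gives it, opposite in sign to the intronic call of that gene. Ephrin A5, a ligand of EPH receptors, had its nearest listed site 170800 bp away, at 6.58 points (q = 0.0543), as the authors' deposited table gives it. These sites were singled out after their values were seen.

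The listed q-values depend on the chromosome as well as on p. Within every chromosome q never fell as p rose, but with all chromosomes sorted together q fell at 7549 steps among the sites and 2546 among the tiles. The ratio of q to a Benjamini-Hochberg value computed within the chromosome was constant within 2% on 21 of 24 chromosomes for sites, with chromosome medians from 0.755 to 0.877. For tiles it was so on 23 of 27, with medians from 0.00488 to 0.611. A tile q can therefore stand for different p on different chromosomes. On chromosome 14, which holds the 10 tiles of CUB and Sushi multiple domains 3, the median ratio was 0.147.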
